A study of Mus musculus with 8 samples.

Results

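The genes of the H3K36 demethylases, the enzymes that remove methyl groups from lysine 36 of histone H3, were examined for the mark their family acts on. They were 6 genes chosen by name (Kdm2a, Kdm2b, Kdm4a, Kdm4b, Kdm4c and Kdm8) among 21853 protein-coding genes on the mouse chromosomes, of which 16263 have at least 4 exons. H3K36me3 ChIP–seq had been done in mouse embryonic fibroblasts (MEFs) from 1 embryo at day E13.5, called Clone 1 in the labels. The study's methods give these cells as i4F MEFs, which carry doxycycline-inducible Oct4, Sox2, Klf4 and c-Myc (OSKM), so that uninduced MEFs carry the cassette too. Cells were kept for 72 h in iPSC medium without doxycycline (MEF) or with 1 µg per ml doxycycline (OSKM), and each was grown without or with 2 µM vitamin B12 (MEF B12 and OSKM B12). The doxycycline dose is the one in the labels, and the study's methods write its unit as mg per ml, so the sources differ. Each condition has 1 H3K36me3 library and 1 input library, so no difference below has a replicate check, none was tested, and intervals cover counting error only.

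H3K36me3 is placed over the bodies of transcribed genes by SETD2, which travels with elongating RNA polymerase II, and in textbook profiles it is low at the start of a gene and higher towards its 3′ end. KDM4A, KDM4B and KDM4C are Jumonji enzymes that act on tri- and dimethylated H3K36 and on methylated H3K9. KDM2A and KDM2B act mainly on dimethylated H3K36, and both bind unmethylated CpG dinucleotides through a CXXC zinc finger. KDM8 (also JMJD5) was first described as a dimethyl-H3K36 demethylase, an assignment that later work has questioned. Marks over these genes report on the genes as transcription units and are no measure of how much of each enzyme the cells held.

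The measurements were broad peaks, each with a position and a pileup, which is the number of overlapping extended tags. The H3K36me3 libraries held between 29046913 and 33399267 tags and gave between 65473 and 69420 peaks on the chromosomes, covering 92.8 Mb in OSKM and between 154 and 166 Mb in the others. The covered share is the percentage of a gene body lying inside peaks, and scaled pileup is pileup per 1000000 tags. Density is the scaled pileup summed over peak bases and divided by the length of the body, so it is a value per base and can be compared between genes. Genes with at least 4 exons and at least 10% of the body covered in at least 1 library are called marked below. There were 8779 marked genes, all 6 members among them. Kdm2b passed only through MEF B12 and OSKM B12, with 11.5% and 13.2% covered against 9.85% in MEF and 7.27% in OSKM.

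The cell identity in the labels was compared with marker genes. Of 10 fibroblast markers, 8 had a peak, and the short genes Twist1 and Twist2 had none. Col1a2 was 97.7%, 96.9%, 79.0% and 94.5% covered in MEF, MEF B12, OSKM and OSKM B12. Col1a1, at 96.5%, 99.4%, 99.3% and 93.9% in the same order, was not less covered in OSKM than in MEF. All 4 epithelial and all 4 blood or endothelial markers had no peak in any library, and neither did the pluripotency markers, except Zfp42 with 2.43% of its body in OSKM. Since these were bulk cultures, fewer cells with the mark and less mark per cell cannot be told apart.

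The promoters of the 2 genes at the ends of the density order, Kdm4a and Kdm2b, are shown because the mark stayed outside these windows while it lay over their bodies in very different ways. Windows of 300 bases, from 250 before to 50 after a start site, were taken from RefSeq (GRCm38.p6) and matched 8 starts of 4 members. Kdm2a and Kdm4b had no window in the table. CpG dinucleotides are in capitals. The first is the Kdm4a promoter (chr4:118179994-118180293, minus strand). The second is the upstream Kdm2b promoter (chr5:122989050-122989349, minus strand). The third is an internal Kdm2b promoter (chr5:122900318-122900617, minus strand), which lies 88.7 kb into the gene.
Kdm4a: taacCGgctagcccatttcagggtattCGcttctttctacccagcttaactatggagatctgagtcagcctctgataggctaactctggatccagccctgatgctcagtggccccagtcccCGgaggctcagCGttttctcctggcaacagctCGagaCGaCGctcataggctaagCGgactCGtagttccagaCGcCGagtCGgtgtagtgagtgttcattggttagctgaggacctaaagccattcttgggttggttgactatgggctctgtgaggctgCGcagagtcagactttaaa
Kdm2b upstream: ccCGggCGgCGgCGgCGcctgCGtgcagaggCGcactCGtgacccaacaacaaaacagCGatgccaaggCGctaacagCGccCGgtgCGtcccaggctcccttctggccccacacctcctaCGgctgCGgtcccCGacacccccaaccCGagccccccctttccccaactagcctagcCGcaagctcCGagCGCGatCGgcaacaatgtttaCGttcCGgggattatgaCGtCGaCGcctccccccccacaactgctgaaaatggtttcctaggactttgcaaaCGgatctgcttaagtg
Kdm2b internal: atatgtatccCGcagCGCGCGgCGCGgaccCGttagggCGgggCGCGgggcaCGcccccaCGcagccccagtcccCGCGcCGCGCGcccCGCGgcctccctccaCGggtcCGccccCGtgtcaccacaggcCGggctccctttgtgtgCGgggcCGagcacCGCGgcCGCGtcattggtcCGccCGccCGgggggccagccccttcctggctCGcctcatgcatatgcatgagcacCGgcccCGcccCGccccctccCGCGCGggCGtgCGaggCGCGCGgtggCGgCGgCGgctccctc

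The Kdm4a window holds 13 CpGs, the upstream Kdm2b window 28 and the internal one 47, against a median of 7 over 32851 RefSeq windows. Of those windows, 37.9% hold at least as many CpGs as Kdm4a, 14.2% as many as upstream Kdm2b and 1.44% as many as internal Kdm2b. None of the 8 member windows had a base inside a peak in any of the 4 libraries, the promoter of Kdm8 with 13 CpGs included. The share of all 32851 windows without a peak is not given here, so this does not set the members apart.

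Over the gene bodies the mark was laid out in the same sense in all members. In each of the 24 pairs of a member and a library, the last 20% of the body was covered to a larger share than the first 20%. In 23 of the 24 the first peak began at least 1 kb past the start site, and the exception was a peak of 464 bases at 0.1 kb in Kdm4a in OSKM. The same counts over all marked genes are not given here, so these counts do not set the members apart. Among all marked genes the median share covered between the start site and exon 2 was 0 in every library. From exon 2 to the gene end it was 42.1% in OSKM and between 69.3% and 74.3% in the other libraries.

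**Figure D1:**
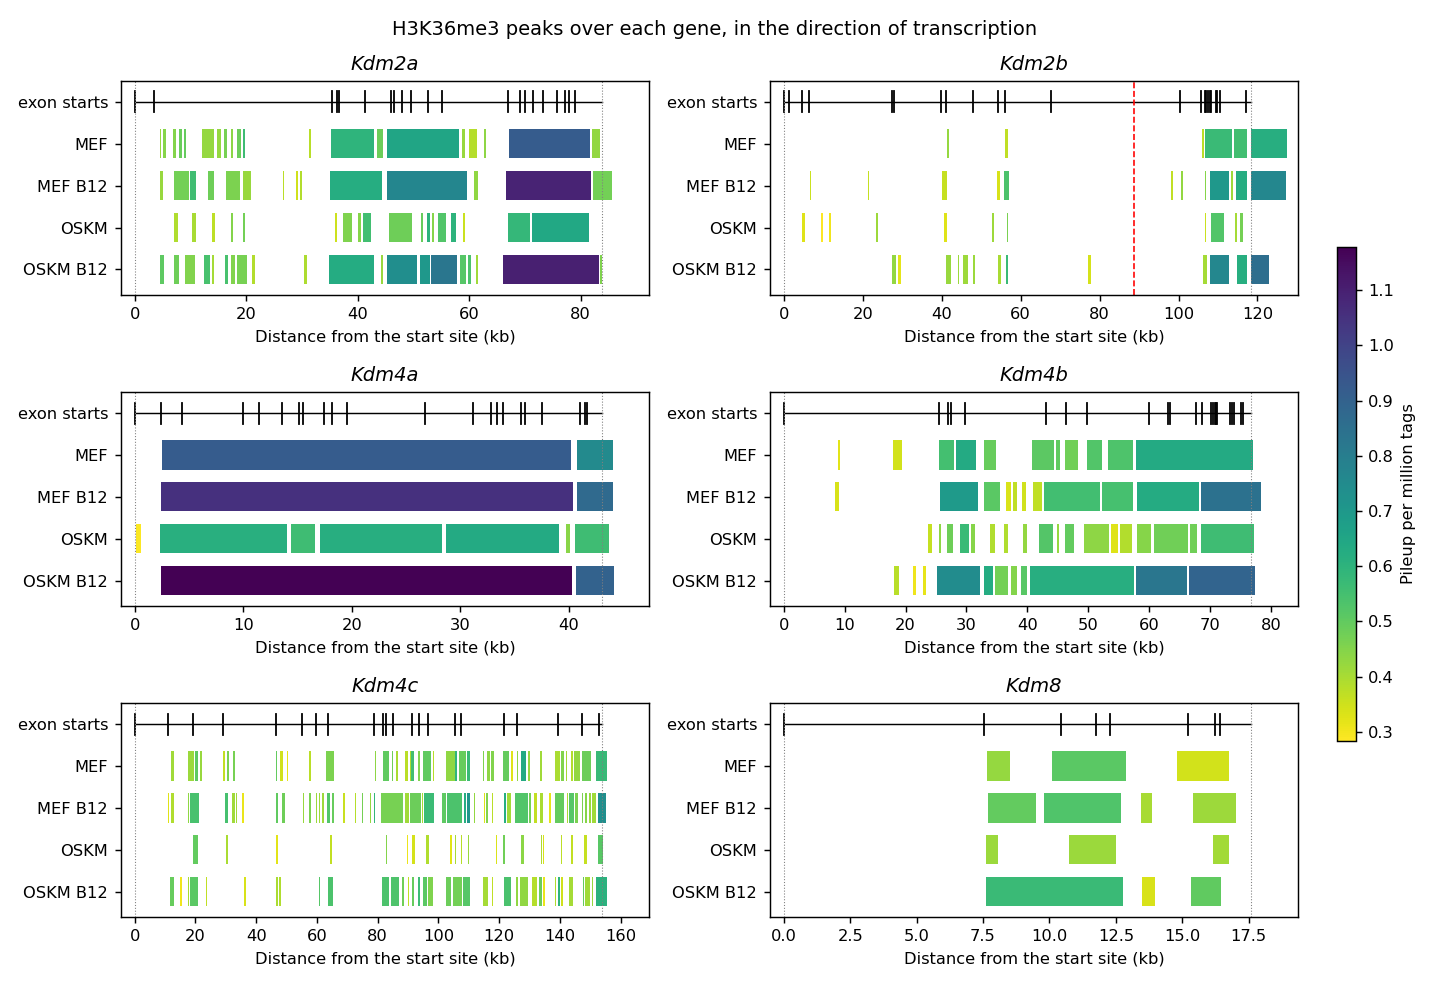
Peaks over the 6 genes, with distance from the start site in kb on the x axis, 1 row per library, the exon starts of the chosen transcript on top, dotted lines at the gene's start and end, and color for scaled pileup. The dashed red line in Kdm2b marks the internal start at 88.7 kb. Kdm4a was covered from exon 2 on, Kdm2b most densely in its last 12.8 kb and Kdm4c by many short peaks.

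Kdm4a (ENSMUSG00000033326, chr4:118136957-118180043, minus strand, 22 exons) encodes the founding trimethyl-H3K36 demethylase of the KDM4 group. Its domain began beside exon 2, which starts 2.47 kb past the start site. The first peak of at least 1 kb began at 2.49 kb in MEF and 2.44 kb in MEF B12, with 2.32 kb in OSKM and 2.40 kb in OSKM B12, in exon 2 or the end of intron 1. One unbroken peak then ran for 37.7 kb in MEF, 37.9 kb in MEF B12 and 37.9 kb in OSKM B12, followed by a gap of under 1 kb and a peak of 3.25 to 3.47 kb over the gene end. In OSKM the same stretch was divided among several peaks. They were 11.7, 2.22, 11.3 and 10.4 kb long, with a piece of 0.33 kb and a 3′ peak of 3.09 kb. Of the whole body, 92.8%, 93.3%, 90.2% and 93.6% were covered in MEF, MEF B12, OSKM and OSKM B12. From exon 2 to the gene end, 98.4% of the bases lay in peaks in MEF and 98.9% in MEF B12, against 94.2% in OSKM and 99.1% in OSKM B12.

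Kdm4b (ENSMUSG00000024201, chr17:56326074-56402864, plus strand, 23 exons in Kdm4b-201) has its longest intron first, 25.4 kb between exons 1 and 2. Over that first stretch 6.73%, 2.80%, 2.84% and 8.62% of the bases lay in peaks in MEF, MEF B12, OSKM and OSKM B12. Past exon 2 the shares were 77.4%, 87.8%, 66.5% and 94.2%. The last 10% of the body was covered to 100% in all 4 libraries. This was the only member with a higher covered share in OSKM B12 than in every other library by more than 5 percentage points (65.7% against 53.9% in MEF, 59.5% in MEF B12 and 45.3% in OSKM).

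Kdm4c (ENSMUSG00000028397, chr4:74251936-74405860, plus strand, 22 exons in Kdm4c-201) is the longest member, at 154 kb. Its mark was broken into 44 peaks in MEF and 51 in MEF B12, with 21 in OSKM and 37 in OSKM B12, and their mean lengths were 1.09, 1.23, 0.670 and 1.27 kb. There was no peak before exon 2, at 10.9 kb, where a shorter coding transcript (Kdm4c-204) also starts. The first peak began at 11.8 kb in MEF and 11.0 kb in MEF B12, against 19.2 kb in OSKM and 11.8 kb in OSKM B12. Peaks covered 29.97% of the body in MEF, 39.8% in MEF B12, 29.5% in OSKM B12 and 8.97% in OSKM. The gap between OSKM and each other library exceeded 20 percentage points. Peaks touched 15 of its exons in MEF and 19 in MEF B12, with 9 in OSKM and 16 in OSKM B12.

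Kdm2a (ENSMUSG00000054611, chr19:4314419-4398285, minus strand, 21 exons in Kdm2a-201) encodes a CpG island binding H3K36me2 demethylase. Its body was covered to 56.3%, 61.7%, 34.0% and 57.7% in MEF, MEF B12, OSKM and OSKM B12, with OSKM alone apart. It was divided into 3 stretches after its peaks had been seen, so their values are a description. Up to exon 3, a stretch of 35.4 kb that is mostly intron 2, the covered share was 21.2%, 29.9%, 6.98% and 26.1% in MEF, MEF B12, OSKM and OSKM B12. Between exons 3 and 13 it was 75.3%, 77.9%, 37.7% and 71.7%. From exon 13 to the gene end it was 94.4%, 98.0%, 83.9% and 98.0%, and the mark there also stood highest, with a density of 0.832, 1.01, 0.524 and 1.07. A coding transcript that begins within 0.027 kb of exon 3 (Kdm2a-206) is annotated at the first of these borders.

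Kdm2b (ENSMUSG00000029475, chr5:122870665-122989099, minus strand, 23 exons in Kdm2b-202) encodes the CXXC protein that brings a variant Polycomb complex, PRC1.1, to CpG islands. In each library the longest and the tallest peak touching its body began past exon 14. In MEF, MEF B12 and OSKM B12 the tallest began at 118.36, 118.33 and 118.38 kb. These starts lie beside the gene end at 118.4 kb, so that peak lay almost wholly beyond the gene. The last 12.8 kb, from exon 14 on, held 89.8%, 63.4%, 55.5% and 54.4% of the covered bases in MEF, MEF B12, OSKM and OSKM B12, and 92.6%, 73.2%, 63.6% and 66.1% of the summed pileup. The 88.7 kb before the internal start of the short transcript Kdm2b-201 were covered to 1.34% in MEF and 4.45% in MEF B12, against 4.32% in OSKM and 8.06% in OSKM B12. They held 2 peaks in MEF and 5 in MEF B12, with 7 in OSKM and 9 in OSKM B12, none longer than 1282 bases, and these made up 10.2%, 29.1%, 44.5% and 45.6% of the covered bases of the gene. The next 16.9 kb, from the internal start to exon 14, had no peak in MEF, OSKM or OSKM B12 and 6.00% covered in MEF B12. From exon 14 on, the body was covered to 81.9% in MEF and 67.3% in MEF B12, against 37.3% in OSKM and 66.7% in OSKM B12. Exon 14 was chosen as a border after the peaks had been seen.

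In OSKM the upstream stretch of Kdm2b went against the order of its 3′ end. There the first 20% of the body was 8.55% covered, from 4 peaks of 394 to 754 bases starting 4.62, 9.51, 11.5 and 23.4 kb past the start site, whereas MEF and OSKM B12 had 0 and MEF B12 2.77%. These are weak peaks, with a −log10 q between 1.19 and 2.23, where the peak calling already required a q of 0.1. Towards the other end, the last peak touching Kdm2b in MEF, MEF B12 and OSKM B12 began just before the gene end. It ran past that end by 9.16, 8.85 and 4.42 kb, into the convergent gene Rnf34, over which most of it lay. No peak crossed the gene end in OSKM. Genes that overlap Kdm2b, Rnf34 included, take 3.06% of its body, and reads in the shared bases cannot be given to either gene.

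Kdm8 (ENSMUSG00000030752, chr7:125444676-125462269, plus strand, 8 exons) is the shortest member, at 17.6 kb. Its first intron takes 7.44 kb and had no peak in any library. The mark began in exon 2 in all 4 libraries, at 7.67 kb in MEF and 7.70 kb in MEF B12, with 7.63 kb in OSKM and 7.62 kb in OSKM B12. Behind it lay 3 peaks in MEF and 4 in MEF B12, against 3 in OSKM and 3 in OSKM B12, the longest of them 2.78, 2.90, 1.78 and 5.13 kb. Over the whole body the covered share was 31.7%, 38.2%, 15.8% and 38.6% in MEF, MEF B12, OSKM and OSKM B12, and past exon 2 it was 55.5%, 66.9%, 27.7% and 67.6%.

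**Figure D2:**
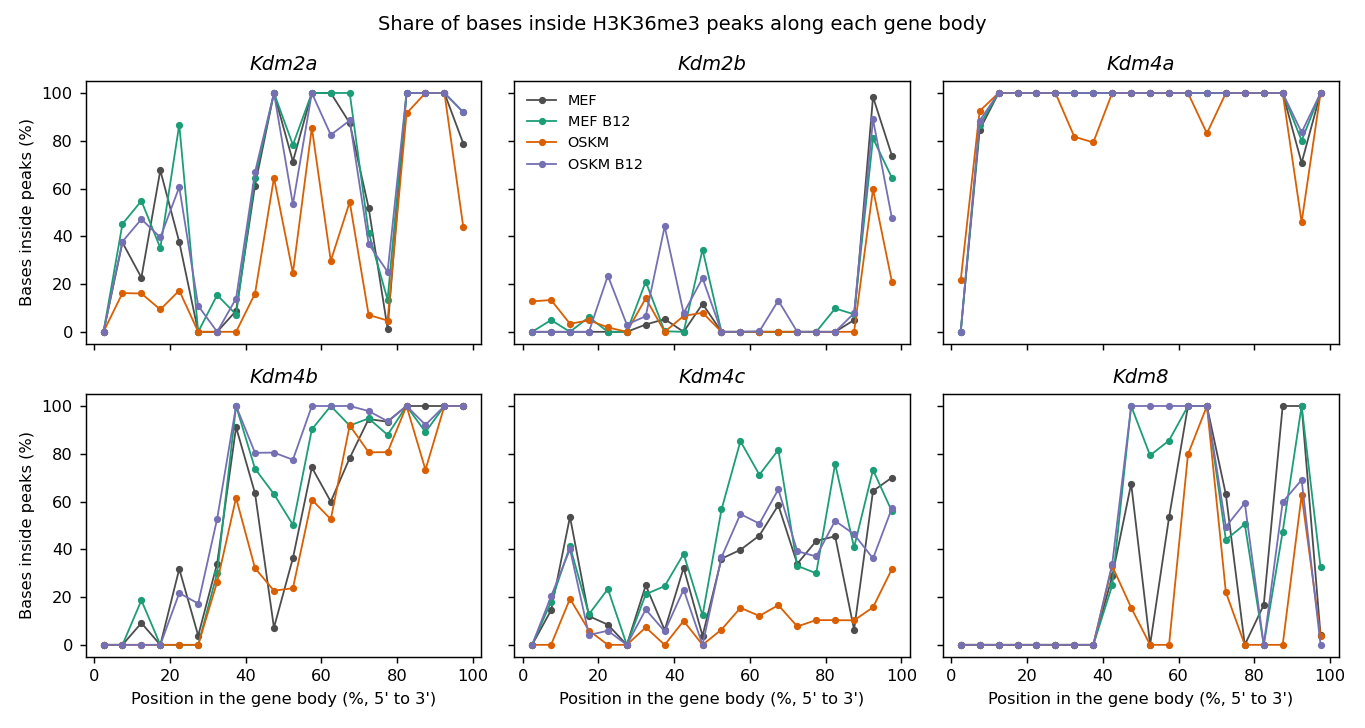
Share of bases inside peaks (y axis, percent) in 20 equal parts of each gene body from 5′ to 3′ (x axis, percent of the body), 1 line per library. The 5′ parts of Kdm8 and Kdm4b were empty or nearly so, and Kdm4a was filled almost throughout. OSKM was at or below every other library in 13 to 19 of the 20 parts, depending on the gene. This includes parts in which all libraries tied at 0% or 100%, as in most of Kdm4a and the 5′ parts of Kdm8.

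The highest and the lowest member differed more from each other than any member did between libraries. The members between them lay closer together, and Kdm4c alone ran from 0.0364 in OSKM to 0.194 in MEF B12. Kdm4a had a density of 0.846 in MEF and 0.974 in MEF B12, with 0.549 in OSKM and 1.09 in OSKM B12, at percentile 99.2, 98.9, 99.1 and 99.1 of all marked genes. It was the highest member in each library. Kdm2a followed in both uninduced libraries, at 0.379 in MEF and 0.471 in MEF B12, with 0.188 in OSKM and 0.458 in OSKM B12. Kdm4b came next at 0.308 in MEF and 0.369 in MEF B12, and with 0.217 in OSKM and 0.463 in OSKM B12 it stood beside or above Kdm2a after induction. In OSKM B12 those 2 genes could not be ordered, since their counting intervals, 0.444 to 0.473 for Kdm2a and 0.448 to 0.479 for Kdm4b, overlapped.

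At the low end, Kdm8 had a density of 0.140 in MEF and 0.186 in MEF B12, against 0.0658 in OSKM and 0.209 in OSKM B12. Kdm4c had 0.139 in MEF and 0.194 in MEF B12, with 0.0364 in OSKM and 0.141 in OSKM B12. These neighbours overlapped in MEF and in MEF B12, and Kdm8 was above Kdm4c in both induced libraries by more than counting error. Kdm2b was lowest throughout, at 0.0536 in MEF and 0.0642 in MEF B12, against 0.0314 in OSKM and 0.0732 in OSKM B12, at percentile 7.55, 6.56, 16.1 and 7.97 of the marked genes. The highest member exceeded the lowest 15.8-fold in MEF and 15.2-fold in MEF B12, with 17.5-fold in OSKM and 14.9-fold in OSKM B12.

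**Figure D3:**
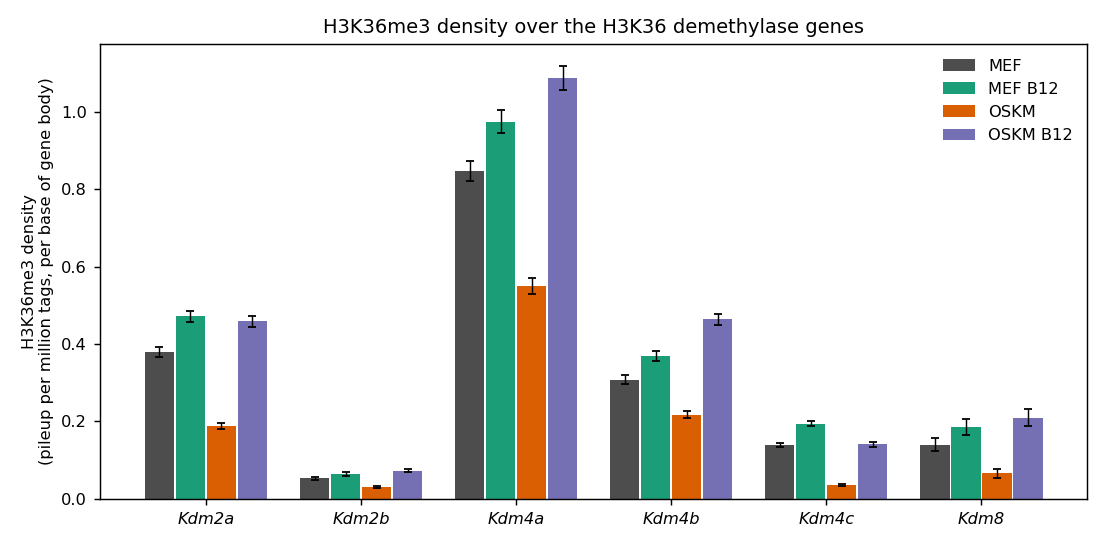
H3K36me3 density (y axis, scaled pileup per base of gene body) of the 6 genes in the 4 libraries, with exact Poisson 95% intervals on the estimated number of tags. For every gene the OSKM bar is the lowest of its 4, from 0.0314 in Kdm2b to 0.549 in Kdm4a.

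The first comparison asked what 72 h of OSKM induction did to the mark without B12. In OSKM all 6 members had a lower density and a lower covered share than in MEF. The density ratio was 0.262 (95% interval 0.240 to 0.286) for Kdm4c, 0.471 (0.381 to 0.582) for Kdm8, 0.497 (0.469 to 0.526) for Kdm2a, 0.585 (0.518 to 0.661) for Kdm2b, 0.650 (0.619 to 0.682) for Kdm4a and 0.705 (0.665 to 0.748) for Kdm4b. Each interval lay below 1, which covers counting error in the tags inside called peaks alone. Bases that were not called count as 0, and the intervals leave out error in what was called. For Kdm4c the ratio of covered shares was 0.299, and that of scaled pileup inside peaks was 0.877.

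A difference was counted when the densities, with 0.05 added to both, differed at least 1.5-fold. By that rule 3 of 6 members (Kdm2a, Kdm4c and Kdm8) were lower in OSKM, where 69.2% of all marked genes were. Kdm4a, with a log2 change of −0.58, lay just outside the threshold, and Kdm8, with −0.71, was the closest of those inside it. The median log2 change was −0.65 over the members and −0.71 over all marked genes. Relative to that median, Kdm4c (−0.42) and Kdm2a (−0.14) were lower, Kdm8 stood at the median, and Kdm4a (0.13), Kdm4b (0.29) and Kdm2b (0.36) were higher. For Kdm2b the pseudocount of 0.05 is about as large as the density itself, so its log2 change of −0.35 understates its ratio. Once peaks under a −log10 q of 5 were dropped, Kdm2b, Kdm4b, Kdm4c and Kdm8 had no peak left in OSKM. The calls for Kdm4c (−0.28) and Kdm8 (no such peak in MEF either) were then lost, and Kdm2b (−0.98), Kdm4a (−0.75) and Kdm4b passed beside Kdm2a. With no OSKM peak left, the pseudocount set the size of the Kdm2b, Kdm4b and Kdm4c changes. With a pseudocount of 0.2 no member passed, where 22.2% of all marked genes did. Over the Kdm2b body of the short transcript alone, an alternative chosen after the data had been seen, the log2 change was −0.94.

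Lost cover and lower peaks took different parts in different genes, but this split depends on how high the peaks stood to begin with. In MEF the scaled pileup inside peaks was 0.912 in Kdm4a and 0.463 in Kdm4c. A low peak that falls drops out of the called set, while a high one can fall and stay called. Shared bases are by definition still called in OSKM. The split therefore cannot be told apart from starting height. Of the bases in peaks in MEF, OSKM kept 95.2% in Kdm4a, 76.3% in Kdm4b, 57.3% in Kdm2a, 49.3% in Kdm8, 43.6% in Kdm2b and 24.7% in Kdm4c, against a median of 59.0% over 8689 marked genes with a peak in MEF. In Kdm4a the loss was therefore in height. Over the 38.0 kb of Kdm4a that were inside peaks in all 4 libraries, the scaled pileup was 0.911 in MEF and 0.613 in OSKM, a ratio of 0.673, where the median over 8259 marked genes was 0.783. In Kdm4c only 9.11 kb were shared by all libraries, and there the scaled pileup was 0.515 in MEF and 0.423 in OSKM, a ratio of 0.822. The ratio over shared bases was 0.724 in Kdm2a, 0.825 in Kdm4b, 0.868 in Kdm8 and 0.906 in Kdm2b. The bases found in OSKM lay mostly inside the MEF peaks, 97.9% in Kdm4a, 98.6% in Kdm8 and 94.8% in Kdm2a, and least so in Kdm2b at 59.1%.

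**Figure D4:**
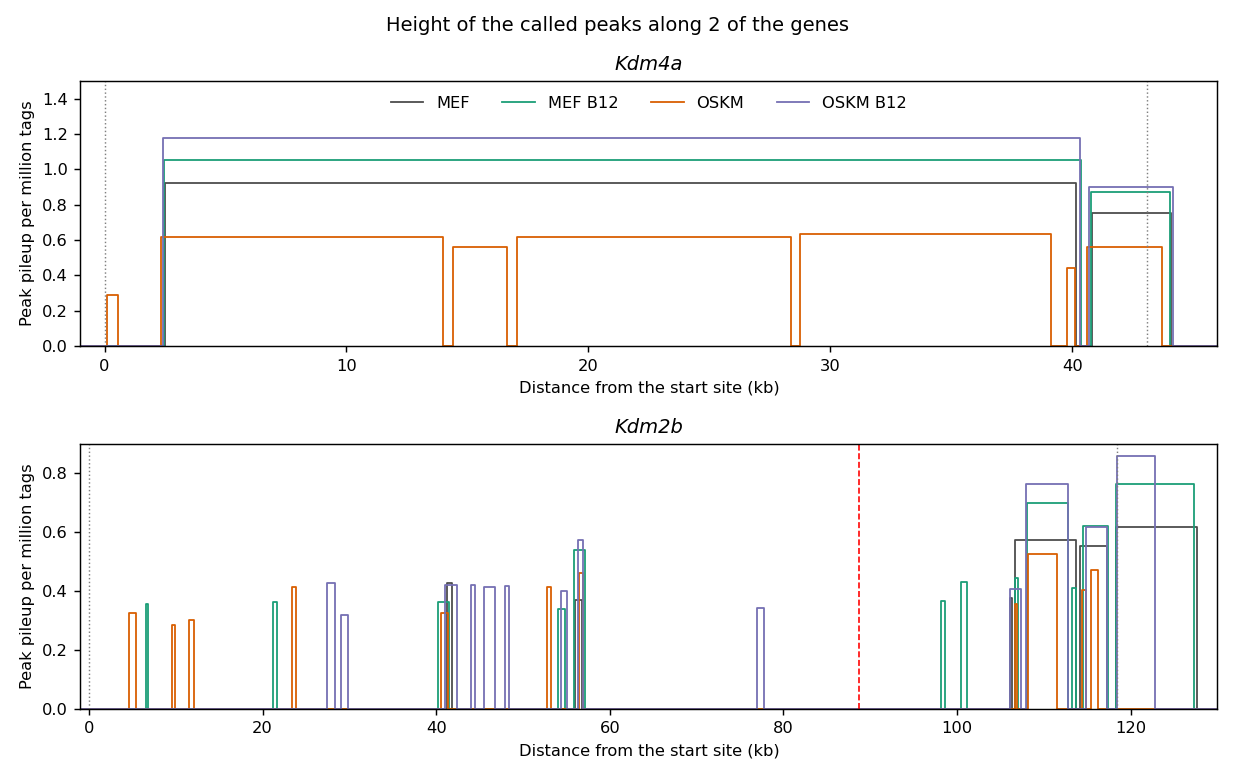
Scaled pileup of each called peak (y axis) along Kdm4a and Kdm2b (x axis, kb from the start site), 1 line per library, with dotted lines at the gene's start and end and a dashed red line at the internal Kdm2b start. Along Kdm4a the 5 OSKM peaks longer than 2 kb stood between 0.560 and 0.633, where the long peak of each other library stood between 0.921 and 1.18 and its 3′ peak between 0.753 and 0.901, and in Kdm2b all peaks above 0.6 lay past 106 kb.

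The second comparison added B12 to cells under OSKM induction. All 6 members were higher in OSKM B12 than in OSKM, and 6 of 6 passed the 1.5-fold rule, which 95.3% of all marked genes did. Kdm2b, and any marked gene like it, entered the marked set only through libraries with B12. Its pass here therefore does not stand apart from that filter. The density ratio was 3.86 (3.53 to 4.22) for Kdm4c, 3.17 (2.60 to 3.89) for Kdm8, 2.43 (2.30 to 2.57) for Kdm2a, 2.33 (2.07 to 2.62) for Kdm2b, 2.13 (2.02 to 2.25) for Kdm4b and 1.98 (1.89 to 2.08) for Kdm4a. On the log2 scale with the pseudocount, Kdm2b was just inside the threshold at 0.60 and stood at percentile 5.17 of the marked genes. The other members lay between 0.92 and 1.16, around a median of 0.98 for all marked genes. The pseudocount is larger than the Kdm2b density in OSKM (0.0314), which lowers the log2 change and the percentile of Kdm2b. Without the pseudocount, the Kdm2b density ratio of 2.33 lay close to the median ratio of 2.38 for all marked genes.

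Part of this was cover at places that lay in peaks in MEF but not in OSKM, 2 cultures grown in parallel with OSKM B12. Of those bases, OSKM B12 covered 100% in Kdm4a, 88.1% in Kdm4b, 77.9% in Kdm8, 68.0% in Kdm2a, 66.6% in Kdm2b and 58.0% in Kdm4c. The same shares over all marked genes were not computed. Over the bases shared by all 4 libraries the scaled pileup was 1.89 times as high in OSKM B12 as in OSKM in Kdm4a and 1.17 times in Kdm4c, with a median of 1.49 over all marked genes. Those members took the extremes among the 6, in the opposite order to the density ratio, with the same limit to bases that were called.

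In uninduced cells B12 went with smaller differences. All 6 members had a higher density in MEF B12 than in MEF, between 1.15 times (1.102 to 1.202) for Kdm4a and 1.40 times (1.33 to 1.48) for Kdm4c. None reached the 1.5-fold rule, which 3.47% of the marked genes passed upwards. Kdm2b entered the marked set only through libraries with B12, MEF B12 among them. Its higher density here therefore does not stand apart from that filter. The median log2 change was 0.25 over the members and 0.21 over all marked genes. The covered share was higher by 9.78 percentage points in Kdm4c and by 0.571 points in Kdm4a.

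With B12 in both, induced and uninduced cells differed little over these genes. No member passed the 1.5-fold rule in OSKM B12 against MEF B12, in which 2.3% of the marked genes passed upwards and 1.26% downwards. Kdm4b was higher, with a ratio of 1.26 (1.20 to 1.32) at percentile 90.0 of the marked genes. Kdm4c was lower, with a ratio of 0.723 (0.684 to 0.764) at percentile 3.39. Kdm2b (1.14), Kdm8 (1.13) and Kdm4a (1.12) had ratios a little above 1. Kdm2a had 0.972, with an interval from 0.930 to 1.02, and Kdm8 an interval from 0.967 to 1.31, so that neither direction was resolved by counting alone. In 4 of 6 members (Kdm2b, Kdm4a, Kdm4b and Kdm8) density was lower in OSKM than in MEF and higher in OSKM B12 than in MEF B12, as in 60.6% of the marked genes. The 4 comparisons share libraries in pairs and are not independent of each other.

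**Figure D5:**
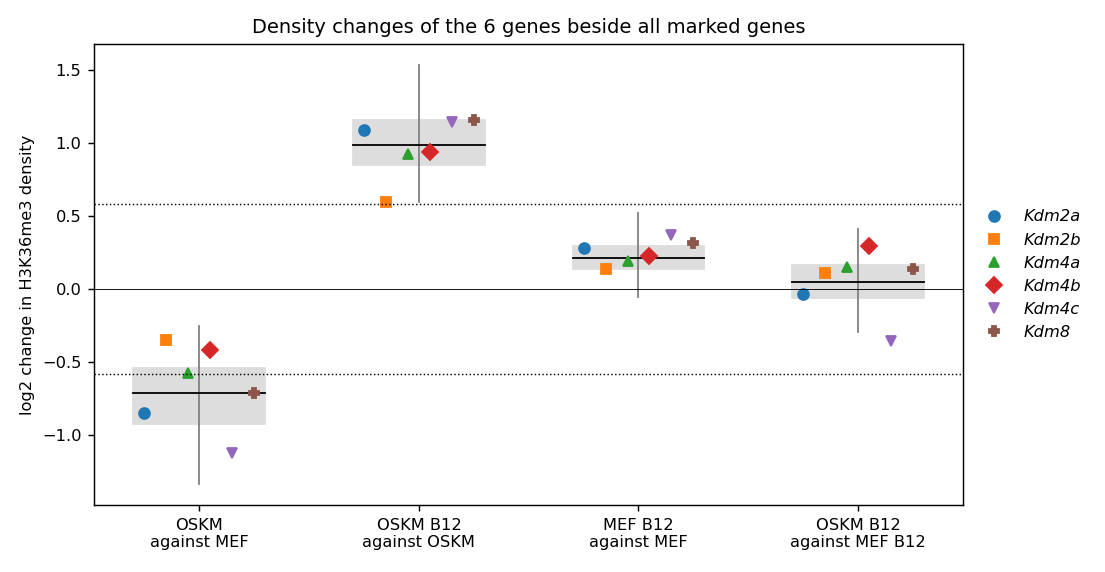
Log2 change in density (y axis, with 0.05 added to both densities) of the 6 genes in the 4 comparisons, over grey boxes from percentile 25 to 75 of the 8779 marked genes, black lines for their median and thin lines from percentile 5 to 95. Dotted lines mark a 1.5-fold difference, which 3 members passed in OSKM against MEF and 6 in OSKM B12 against OSKM.

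These differences are tied to how the libraries are set on a common scale. Dividing by each library's median density over marked genes, in place of tags alone, moved the median log2 change in OSKM against MEF from −0.71 to 0.06. Under it Kdm4c alone remained lower by 1.5-fold in OSKM, at −0.61, as did 10.9% of all marked genes, while Kdm2a, Kdm2b, Kdm4a and Kdm4b had values above 0. No member passed in OSKM B12 against OSKM, where 10.2% of all marked genes did, and Kdm2a, Kdm2b, Kdm4a and Kdm4b had values below 0.

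The other genes of the pathway were taken from fixed lists. Of 19 other lysine demethylase genes, 16 were marked, and 16 of the 16 were lower in OSKM and 16 higher in OSKM B12 than in OSKM by the 1.5-fold rule. With the pseudocount, Kdm1b had the lowest log2 change of them relative to MEF (−1.35), and Kdm6b, which acts on methylated H3K27, the one nearest to 0 (−0.59). The pseudocount decides the first of these, since the density ratio without it was 0.293 for Kdm1b but 0.0781 for Uty, 0.113 for Kdm6a and 0.178 for Phf8. Kdm4d, a KDM4 relative that acts on H3K9 and not on H3K36, had no peak in any library. Of 6 H3K36 methyltransferase genes all were marked and 5 were lower in OSKM, with Nsd2 at −1.15 and Smyd2 at −0.48. Setd2, the gene of the enzyme that writes H3K36me3, was 65.9%, 68.2%, 36.8% and 67.6% covered in MEF, MEF B12, OSKM and OSKM B12, with a log2 change of −0.999 on induction and of 1.16 with B12 added to OSKM. Of 11 genes for partners of KDM2B in PRC1.1 and the SCF ubiquitin ligase, 9 were marked and 6 were lower in OSKM. Pcgf1, which encodes the PRC1.1 RING partner, had the lowest log2 change (−1.22) and Skp1a, a core SCF subunit gene, the one nearest to 0 (−0.23). Without the pseudocount the density ratio of Bcor, another PRC1.1 gene, was lower (0.291) than that of Pcgf1 (0.311). All 9 were higher in OSKM B12 than in OSKM. The median log2 change in OSKM against MEF was −0.83 for the other demethylases, −0.92 for the methyltransferases and −0.83 for the partners, beside −0.71 for all marked genes. Among fibroblast markers, 5 of 7 marked genes were lower in OSKM, with a log2 change of −0.79 in Col1a2 and −0.36 in Col1a1, and their part in the differences of the members was not tested.

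The marked genes closest to each member over the 4 libraries were found by the largest absolute difference in log2 density, with the pseudocount. They were Arrdc4 (0.03) and Ino80d (0.04) for Kdm2a, Prodh (0.05) and Baiap2l1 (0.06) for Kdm2b, Gsn (0.02) and Rbm42 (0.03) for Kdm4a. For Kdm4b they were Ptpa (0.0044) and Fbxo6 (0.04), for Kdm4c Klhl28 (0.05) and Cmpk1 (0.06), and for Kdm8 Tram2 (0.06) and Dnajb5 (0.06). Close matches in density can have a quite different layout, since Kdm2b spreads its density over 118 kb and Prodh over 17.6 kb.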

How the data were processed

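The 6 genes and the other gene lists were chosen with earlier results of these data known. Per the labels and the study's methods, the authors aligned reads of 8 libraries to mm10 with Bowtie 0.12.9, removed duplicates and called broad peaks with MACS2 2.2.6 on each H3K36me3 library against its input, at q thresholds of 0.05 and 0.1. The deposited pileup is a signal in extended tags, the deposited fold enrichment is a ratio to the local input, and the deposited significance is a −log10 p-value and a −log10 q-value. Depth ranged from 29046913 to 33399267 tags, which sets the weakest enrichment that could be called.

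Peaks on scaffolds (1 to 16 per library) were left out. For each protein-coding gene the coding transcript with the most exonic bases was taken from GENCODE release M21. Covered share, density and log2 changes (pseudocount 0.05) were computed with Python 3.11 and numpy, exact Poisson and Clopper-Pearson 95% intervals on estimated tags (pileup times bases divided by the fragment length, 288 to 292 bases) with scipy, and the interval sums were checked base by base. Named genes were the 6 members, Kdm4d, Setd2 and the 2 marked genes closest to each member. The largest and smallest change on induction among the marked genes of each other list were named too. Alternatives changed the peak threshold, peak joining, gene body, pseudocount, scaling and fold. Read coverage outside peaks was not used here.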

Additional observations from a re-analysis of the deposited data

Results flagged for a closer look

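In 4 of the 6 genes the single libraries went opposite ways under the same contrast: density was lower in OSKM than in MEF without B12 and higher in OSKM B12 than in MEF B12. The log2 change with B12 exceeded the one without it by 0.85 in Kdm8, by 0.73 in Kdm4a, by 0.72 in Kdm4b and by 0.46 in Kdm2b. With 1 library per condition the difference was not tested. The same opposite directions were found in 60.6% of the 8779 marked genes. With densities divided by each library's median over marked genes, the log2 changes without and with B12 were 0.38 and 0.09 in Kdm4a, 0.45 and 0.23 in Kdm4b and 0.13 and 0.07 in Kdm2b, so that only Kdm8, at −0.05 and 0.08, kept opposite signs. After joining peaks no more than 1 kb apart, the Kdm2b change with B12 was −0.026, so its directions were no longer opposite.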

How the results depend on the processing

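No replicate could be left out. No paired analysis was possible because the conditions shared 1 replicate number only. In OSKM against MEF, 3 members were lower by the rule (69.2% of all marked genes, whose share follows each count of this comparison). The count was 5 with a pseudocount of 0.01 (81.9%), 0 with 0.2 (22.2%) and 5 with density from fold enrichment minus 1 (85.2%). It was 6 at a lower threshold, a ratio of 5 to 4 (93.0%), and 1 at a 2-fold threshold (19.3%). It was 1 with division by the library's median density (10.9%), which by its construction removes a difference that all marked genes share. By the definition of the rule, a lower threshold can only raise the count and a higher one can only lower it. A larger pseudocount draws every log2 change towards 0. The cause of the move with fold enrichment was not tested. Once peaks under a −log10 q of 5 were dropped the count was 4 (60.1%), but Kdm4c and Kdm8 were lost and Kdm2b, Kdm4a and Kdm4b gained. In OSKM B12 against OSKM, 6 members were higher (95.3% of all marked genes). At a 2-fold threshold, just above the median log2 change of 0.98 over all marked genes, the count was 3. It was 4 with a pseudocount of 0.2 (64.7%, without Kdm2b and Kdm4c) and 5 past that q (75.9%, without Kdm4c). With pileup not divided by tags it was 5 (90.3%, without Kdm2b), and with division by the median 0 (10.2%). Under that division 9 differences changed sign. They were Kdm2a (0.0088), Kdm2b (0.13), Kdm4a (0.38) and Kdm4b (0.45) in OSKM against MEF, Kdm2a (−0.047), Kdm2b (−0.063), Kdm4a (−0.33) and Kdm4b (−0.22) in OSKM B12 against OSKM, and Kdm4a (−0.051) in MEF B12 against MEF. The other sign changes were of Kdm2b in MEF B12 against MEF (−0.075) and Kdm2a in OSKM B12 against MEF B12 (0.21) past that q, and, in OSKM B12 against MEF B12, Kdm2a (0.029) and Kdm2b (−0.026) with peaks at most 1 kb apart merged and Kdm2b (−0.050) over the short transcript. In MEF B12 against MEF, 1 member (Kdm4c, at percentile 87.0 of the marked genes) was higher at the lower threshold. In OSKM B12 against MEF B12, 1 (Kdm4c, at percentile 3.39 of the marked genes) was lower at that threshold. Past that q 2 (Kdm4b and Kdm8) were higher, where Kdm8 had no peak in the other libraries. The share of all marked genes is not given for that count. The 3′ end was the more covered one in 24 of 24 pairs also with 10% and 50% ends, again without a share over all marked genes. A first peak at least 1 kb from the start was found in 17 of the 17 pairs with a peak past that q. Without replicates or reads outside peaks, the depth of 29046913 to 33399267 tags limits the report to enrichment the caller could find.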
